A study of Homo sapiens with 4 samples.

Results

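The RNA levels of 7 genes of the RAS, RAF and ERK kinase cascade were compared between naïve human embryonic stem cells (ESCs) grown in 2-D and in 3-D culture. The genes were taken by name out of the 60564 genes of the count files, with earlier results of these data known. They were the small GTPases *NRAS*, *RRAS2* and *MRAS*, the kinase *BRAF*, the MEK genes *MAP2K1* and *MAP2K2*, and the ERK gene *MAPK3*. All libraries came from Elf1, a single established line of naïve human ESCs. The 2-D grown cells were an adherent culture on plastic coated with Matrigel. The 3-D grown cells had been dissociated and enclosed in a self-assembling polyethylene glycol scaffold, named PEG-8-SH/PEG-8-Acr in the labels, where they stayed for 21 days. Each condition had 2 libraries of rRNA-depleted RNA, and no genotype or drug differed between them. The methods describe the expansion medium of the line as holding FGF2, LIF, the GSK3 inhibitor CHIR99021 and a MEK inhibitor, so inhibition of the cascade at the level of MEK belonged to the maintenance of these cells in both conditions. The line was kept on mouse feeder cells and moved to feeder-free Matrigel before encapsulation, per the same methods, and neither condition was compared with cells grown without the inhibitor.

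RAS proteins are membrane-bound switches that are active when loaded with GTP. Active RAS recruits RAF kinases to the membrane, RAF phosphorylates MEK, and MEK phosphorylates ERK, which then acts on kinases and transcription factors of the growth response. In ESCs, FGF signals run through this cascade and favour exit from the naïve state, which is why naïve media carry a MEK inhibitor. The activity of the cascade is set by GTP loading and phosphorylation, which RNA levels do not measure.

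The 4 libraries held 18276147 to 33833778 counts, and both 2-D libraries were deeper than both 3-D libraries. No library was left out. Of the defining markers, *POU5F1* (normalized CPM, counts scaled to a common library size by TMM, of 109 to 132), *NANOG* (197 to 216) and *SOX2* (215 to 258) were present in all libraries, and 0 of 6 core pluripotency genes passed the test between the conditions, with 3 of 6 at an unadjusted p below 0.05. Of the 9 naïve markers, *KLF5* (46.9 to 57.2 normalized CPM), *TFCP2L1* (22.1 to 23.8), *DNMT3L* (14.6 to 17.9) and *KLF4* (9.26 to 10.4) were the highest, *SUSD2* and *DPPA3* stood at 5.75 to 8.42, and *DPPA5*, *KLF17* and *ARGFX* at 0 to 1.07 in both conditions. The naïve list had 1 of 8 tested genes called higher in 3-D grown cells (*KLF5*) and the primed list 3 of 7 (*SFRP2*, *THY1* and *DNMT3B*). Over all 22555 genes tested by edgeR, 4.54% were called higher. Of the fibroblast list, 2 of 5 tested genes were called higher (*COL1A1* and *COL3A1*). *COL1A2*, the most abundant of the list at 301 to 325 normalized CPM, overlapped between the conditions (log2 fold change -0.04, edgeR adjusted p = 0.649). *PDGFRB* and *TWIST1* were not called either. The summed level of the list was 459 to 466 normalized CPM in 2-D and 468 to 510 in 3-D grown cells. *DCN*, a defining marker, stood at 2 to 6 counts. None of the 17 tested neural, mesoderm, endoderm and trophoblast markers was called by edgeR, with 4 of them at an unadjusted p below 0.05. The part of these markers in the results below was not tested, and in bulk RNA fewer cells of a type and less RNA per cell cannot be told apart.

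The promoters of the MEK genes are shown because *MAP2K1* was the only one of the 7 genes called between the conditions while its partner *MAP2K2* was not. Each line gives the 250 bases before the gene's start in RefSeq (GRCh38.p14), read in the direction of the gene, with the matches to the searched motifs in capitals. Of the 2 starts that RefSeq gives each gene, the one nearest to the gene start in GENCODE was taken.
MAP2K1, chr15:66386662-66386911, plus strand: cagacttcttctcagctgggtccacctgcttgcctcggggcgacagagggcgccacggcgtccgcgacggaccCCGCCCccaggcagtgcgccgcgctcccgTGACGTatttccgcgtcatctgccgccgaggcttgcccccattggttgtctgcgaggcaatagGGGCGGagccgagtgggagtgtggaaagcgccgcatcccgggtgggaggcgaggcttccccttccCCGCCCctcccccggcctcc
MAP2K2, chr19:4124123-4124372, minus strand: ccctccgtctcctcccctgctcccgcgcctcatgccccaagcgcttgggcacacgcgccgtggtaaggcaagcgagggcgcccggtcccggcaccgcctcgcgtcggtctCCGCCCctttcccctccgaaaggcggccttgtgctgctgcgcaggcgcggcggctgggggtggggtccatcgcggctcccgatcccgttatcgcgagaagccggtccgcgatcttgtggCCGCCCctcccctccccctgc

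The search covered 4 motifs on both strands: the GC box GGGCGG, the ETS core CCGGAA, the CRE core TGACGT and the SRE core of serum response factor. The *MAP2K1* window held 3 GC boxes and 1 CRE core, and the *MAP2K2* window held 2 GC boxes and no CRE core. Of all 35116 promoter windows of the same length, 42.6% held a GC box, 14.5% the ETS core, 7.10% the CRE core and 0.0313% the SRE core. The GC box was also found in the windows of *MAPK3* (6 matches) and *NRAS* (2 matches), and in none of those of *RRAS2*, *MRAS* and *BRAF*. Each of the 7 genes was represented by 1 window, and none of these held the ETS or SRE core. *RRAS2* had 4 windows and *MRAS* 3, of which only the one nearest to the gene start in GENCODE was taken. The matches describe letters only and say nothing of binding in these cells.

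Of the 7 genes, all of which passed the filter on low counts, 1 was called between 3-D and 2-D grown cells by the edgeR quasi-likelihood test (adjusted p below 0.05), and it was lower in 3-D grown cells. Over all 22555 genes tested, 7.90% were called, 4.54% as higher and 3.36% as lower in 3-D grown cells. The 2 conditions did not overlap in 4 of the 7 genes (*NRAS*, *RRAS2*, *MAP2K1* and *MAPK3*), against 50.5% of all genes tested, so this count was near the background. The median log2 fold change of the 7 genes was -0.01, beside -0.00014 for all genes tested. Before adjustment, p was below 0.05 for *MAP2K1* and *MAPK3*, that is 2 of the 7 genes, and for 4808 of all 22555 genes tested. The methods call the replicates independent and biological. The p-values set each difference between the conditions against the spread between these libraries, which the fit estimates with all genes tested.

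**Figure D1:**
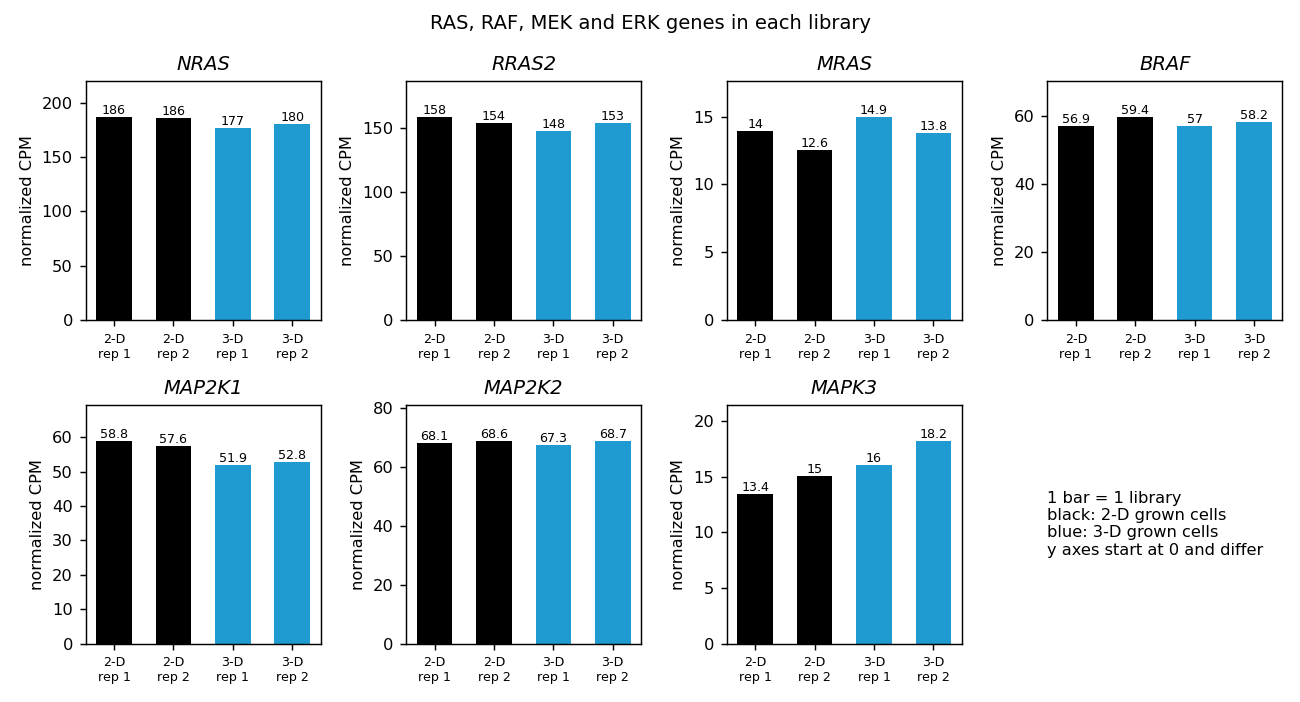
TMM-normalized CPM of the 7 genes, 1 bar per library, black for 2-D and blue for 3-D grown cells; each y axis starts at 0 and has its own range. Both 3-D bars lie below both 2-D bars for *NRAS*, *RRAS2* and *MAP2K1*, and above them for *MAPK3*, for which the bars run from 13.4 to 18.2 normalized CPM.

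Among the RAS genes, *NRAS* and *RRAS2* were abundant and *MRAS* was low. *NRAS* (chr1:114704469-114716771, hg38), a classical RAS gene that is often mutated in blood and skin cancers, stood at 186.3 and 186.0 normalized CPM in the 2-D libraries and at 177.0 and 180.2 in the 3-D libraries. Both 3-D libraries were below both 2-D libraries, but the difference did not pass the test (log2 fold change -0.06 ± 0.03 SE, 95% interval -0.12 to 0.0043, adjusted p = 0.272). In percent, the interval ran from -8.25% to 0.300%. *NRAS* shared no exon with another gene and had 3231 to 6416 counts a library.

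*RRAS2* (chr11:14277922-14364506), which encodes TC21, a RAS relative with similar effectors, stood at 158.0 and 154.0 normalized CPM in the 2-D libraries and at 147.8 and 153.3 in the 3-D libraries. The 3-D libraries were again the lower ones, by less than 1 CPM between the closest pair. The log2 fold change was -0.05 ± 0.03 (SE), with a 95% interval of -0.12 to 0.02 and an adjusted p of 0.394. A near-identical intronless copy on chr1:52991782-52993704 covered 82.1% of the *RRAS2* transcript at 98.2% identity, and how reads matching both places were counted is not given in the sources used here. *RRAS2P1*, the annotated pseudogene there, stood at 5.58 to 7.11 normalized CPM and did not pass the test (log2 fold change 0.03, adjusted p = 0.942). Its annotated exons have 502 bases and do not cover the whole copy. Its counts thus do not show how many *RRAS2* reads were lost to the copy.

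*MRAS* (chr3:138347648-138405534), whose product works with SHOC2 and a phosphatase to release RAF from inhibition, stood at 13.97 and 12.56 normalized CPM in the 2-D and at 14.94 and 13.78 in the 3-D libraries. The conditions overlapped. The log2 fold change was 0.11 ± 0.09 (SE), with an adjusted p of 0.535. Its 95% interval of -0.08 to 0.31 was wider than that of *NRAS*, at 247 to 481 counts a library.

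Whether *NRAS* and *RRAS2* passed the test depended on the scaling of the libraries. With library size in place of TMM scaling, the log2 fold change was -0.12 for *NRAS* (adjusted p = 0.0221) and -0.12 for *RRAS2* (adjusted p = 0.0417), both below the threshold. That scaling moved the median of all genes by -0.06 on the log2 scale, and the calls over all genes went from 1024 higher and 758 lower to 514 higher and 1879 lower.

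*BRAF* (chr7:140719327-140924929), the RAF kinase with the strongest basal activity and the one most often mutated in melanoma, did not differ detectably between the conditions. It stood at 56.9 and 59.4 normalized CPM in the 2-D and at 57.0 and 58.2 in the 3-D libraries. Both 3-D values lay between the 2-D values. The log2 fold change was -0.01 ± 0.04 (SE) and the adjusted p was 0.898. The 95% interval in percent, -7.10% to 5.58%, bounds the difference that could have been missed.

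The exons of *BRAF* overlapped those of *NDUFB2*, a complex I subunit gene on the opposite strand, over 5.29% of their length. *NDUFB2* fell from 38.4 and 35.5 normalized CPM in 2-D to 26.7 and 24.2 in 3-D grown cells (log2 fold change -0.54 ± 0.07 SE, adjusted p = 0.000703). Whether the counting used strand is not given in the sources used here, so reads of the shared stretch cannot be told apart. *BRAFP1*, a processed pseudogene of *BRAF*, stood at 0.260 to 0.558 normalized CPM and did not pass the test (adjusted p = 0.347).

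The MEK genes encode MEK1 and MEK2, the kinases that phosphorylate ERK and the targets of the inhibitor in naïve media. *MAP2K1* was lower in 3-D grown cells and *MAP2K2* did not differ detectably. *MAP2K1* (chr15:66386837-66491656), whose promoter is printed above, stood at 58.8 and 57.6 normalized CPM in the 2-D libraries and fell to 51.9 and 52.8 in the 3-D libraries. The conditions did not overlap, and the gap between them was larger than the spread within either one. The means were 58.2 ± 0.892 and 52.3 ± 0.639 (SD, n = 2 each), with a log2 fold change of -0.15 ± 0.04 (SE) and an edgeR adjusted p of 0.0432. In percent, the change was -10.1%, with a 95% interval of -15.7% to -4.25%.

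The call of *MAP2K1* was close to the threshold. DESeq2 gave nearly the same log2 fold change with an adjusted p of 0.291, and edgeR's likelihood ratio test gave an adjusted p of 0.183. Leaving out 2-D replicate 1, 2-D replicate 2, 3-D replicate 1 or 3-D replicate 2 gave adjusted p-values of 0.338, 0.202, 0.105 and 0.0501, so that the call ended each time, while the log2 fold change stayed between -0.17 and -0.14.

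The last exons of *MAP2K1* lie in a crowded place. A long non-coding RNA gene on the opposite strand, ENSG00000261351, overlapped 20.5% of the exon bases of *MAP2K1*, and *SNAPC5*, a subunit gene of the snRNA-activating complex, overlapped 3.34%. ENSG00000261351 had 162 and 131 counts in the 2-D and 91 and 58 in the 3-D libraries, beside 946 to 2026 counts of *MAP2K1*. It did not pass the test (log2 fold change -0.22 ± 0.17 SE, adjusted p = 0.524). Whether the counting used strand is not given in the sources used here. Reads of the shared stretch may thus have been left out of both genes, and these counts do not show how many. *SNAPC5* had a log2 fold change of -0.02 (adjusted p = 0.955). The pseudogene *MAP2K1P1* stood at 0.726 and 0.649 normalized CPM in the 2-D and at 0.389 and 0.279 in the 3-D libraries (adjusted p = 0.181).

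*MAP2K2* (chr19:4090321-4124122) stood at 68.1 and 68.6 normalized CPM in the 2-D and at 67.3 and 68.7 in the 3-D libraries. The conditions overlapped. The log2 fold change was -0.0069 ± 0.04 (SE), the adjusted p was 0.944, and the 95% interval in percent ran from -5.81% to 5.15%. The size of the contrast between the MEK genes depended on the fit: after correction for length and GC content of the genes the log2 fold change was -0.08 for *MAP2K2* (adjusted p = 0.213) and -0.17 for *MAP2K1*, and with library size alone -0.07 (adjusted p = 0.288) and -0.22.

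The share of *MAP2K1* in the sum of both MEK genes, per length of their exons, does not depend on library scaling. It was 51.0% and 50.2% in the 2-D and 48.1% and 48.0% in the 3-D libraries. Both 3-D libraries were thus below both 2-D libraries, with means of 50.6% ± 0.514 and 48.0% ± 0.0402 (SD, n = 2 each) in a two-sided exact permutation test with p = 0.33, the smallest p that 2 against 2 libraries allow. With the longest transcript as the length, the shares were 37.9% and 35.6%, so the difference was similar (-2.55 and -2.37 percentage points) while the level of the share depended on the length used.

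*MAPK3* (chr16:30114105-30123506), which encodes ERK1, had the largest difference of the 7 genes and did not pass the test. It stood at 13.4 and 15.0 normalized CPM in the 2-D and at 16.0 and 18.2 in the 3-D libraries. The conditions did not overlap, but the closest pair of libraries was nearer than the libraries of either condition were to each other. The log2 fold change was 0.26 ± 0.09 (SE), with a 95% interval of 0.06 to 0.46 and an adjusted p of 0.113. *MAPK3* rested on 326 to 463 counts a library. Without 3-D replicate 1, the log2 fold change was 0.36 with an adjusted p of 0.0096, whereas the lowest value with 1 library left out was 0.17.

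**Figure D2:**
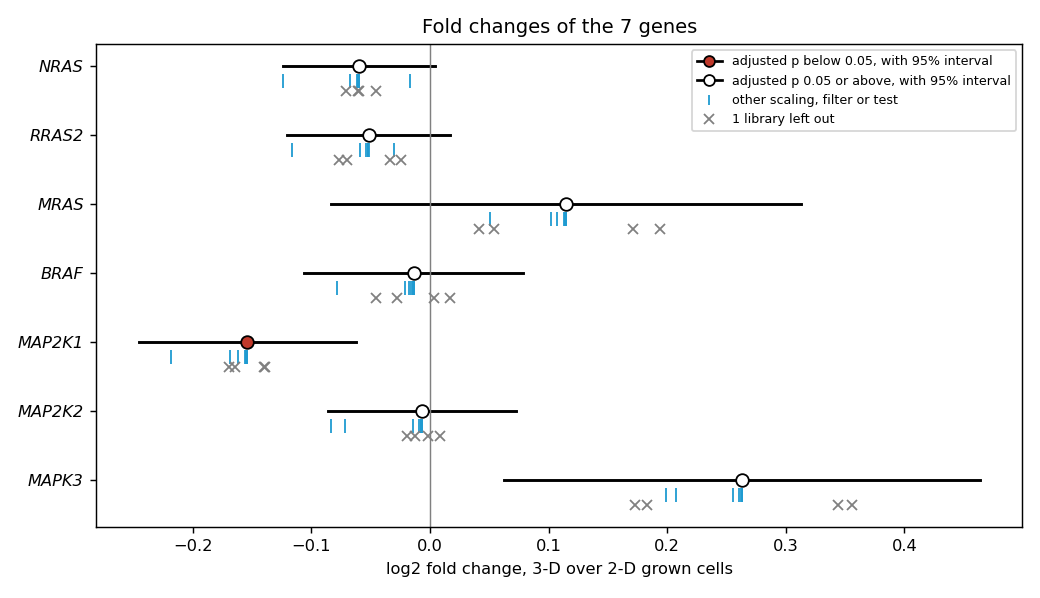
Log2 fold change of each of the 7 genes, 3-D over 2-D grown cells, with its 95% interval from the edgeR fit; ticks give the value under another scaling, filter or test, and crosses the value with 1 library left out. *MAP2K1* at -0.15 is the only filled point, *MAPK3* at 0.26 has an interval wholly above 0, and the crosses of *BRAF* and *MAP2K2* lie on both sides of 0.

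Levels of different genes were compared per kilobase of exon. Per union of exons, *RRAS2* stood highest at 42.8 to 45.7 normalized CPM per kilobase over the 4 libraries, followed by *NRAS* at 40.9 to 43.1, and these ranges overlapped. *MAP2K2* (8.67 to 8.84) and *MAP2K1* (8.03 to 9.10) came next and also overlapped. Below them followed *MAPK3* (3.66 to 4.96), *BRAF* (2.43 to 2.54) and *MRAS* (2.01 to 2.39), whose ranges were separate. The order of the means over all 4 libraries was thus led by *RRAS2* and *NRAS*, with the MEK genes next and *MRAS* last.

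The order of the means over all 4 libraries was the same per longest transcript, but the neighbours that overlapped were not, and the order within 2-D grown cells was not the same. There, *MAP2K1* (mean 9.01) stood above *MAP2K2* (8.80) and *MAPK3* (3.88) above *BRAF* (2.48) per union of exons, whereas per longest transcript *MAP2K1* (11.96) stood below *MAP2K2* (19.6) and *MAPK3* (5.55) below *BRAF* (5.93). Per longest transcript *RRAS2* (63.1 to 67.4 normalized CPM per kilobase) was separate from *NRAS* (40.9 to 43.1), and *MAP2K2* (19.3 to 19.7) from *MAP2K1* (10.7 to 12.1). *MAPK3* (5.24 to 7.08) and *BRAF* (5.80 to 6.06) overlapped instead. The annotated exons of *BRAF* add up to 23433 bases against 9807 in its longest transcript.

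**Figure D3:**
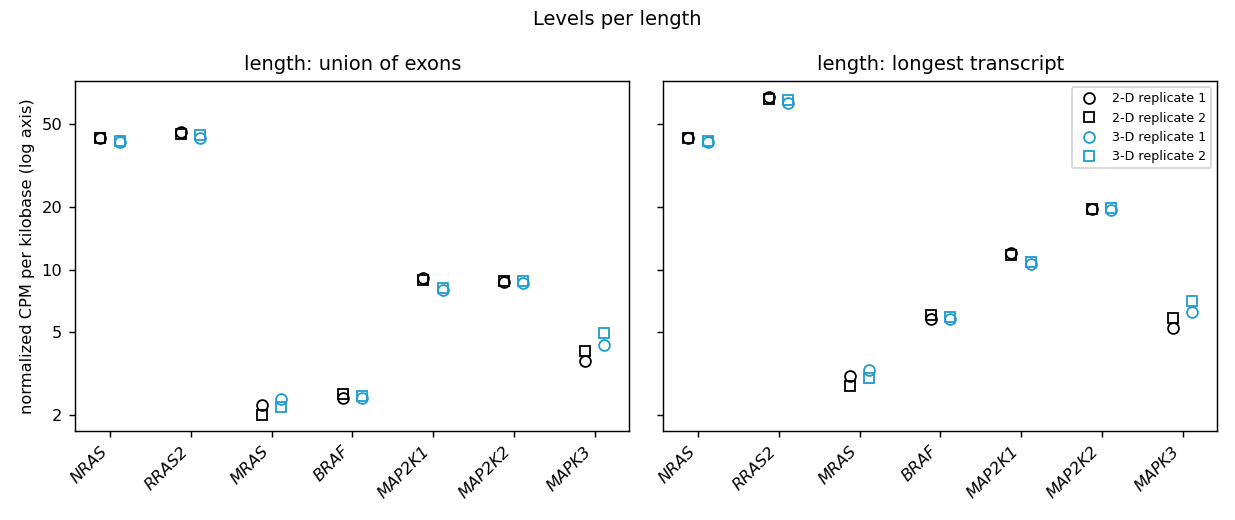
Normalized CPM per kilobase of the 7 genes on a log axis, with length taken as the union of exons (left) or the longest transcript (right); black marks are 2-D and blue marks 3-D libraries, circles replicate 1 and squares replicate 2. *RRAS2* and *NRAS* lie above 40 in both panels and *MRAS* is lowest in both, while *BRAF* and *MAPK3* overlap only in the right panel.

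Within the RAS genes, the shares of the summed level per union of exons did not move between the conditions beyond the spread of the libraries for *NRAS* and *RRAS2*. *NRAS* held 47.7% ± 0.492 in 2-D and 47.4% ± 0.226 in 3-D grown cells (SD, n = 2 each; exact permutation p = 0.667). *RRAS2* held 49.99% ± 0.342 and 49.99% ± 0.422 (exact permutation p = 1.0). *MRAS* held 2.45% and 2.24% in the 2-D and 2.77% and 2.50% in the 3-D libraries, which did not overlap (exact permutation p = 0.33).

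The other genes of the pathway were counted on 8 lists by role, with 105 distinct genes, 4 of them on 2 lists. Of the 99 that were tested, 10 had a call as higher and 4 as lower with 3-D culture, together 14.1% beside 7.90% of all genes tested, with a median log2 fold change of 0.03. The split depended on scaling and test: with library size alone 3 were called higher and 12 lower, and with DESeq2 6 were called higher and 1 lower.

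Upstream of RAS, none of the genes counted here was called by edgeR, beside 7.90% of all 22555 genes tested. On lists this short, 0 calls is near that share. In the same edgeR fit, 4808 of all genes tested had an unadjusted p below 0.05. Of 10 tested exchange factors and adaptors, which load RAS with GTP or bring the loaders to receptors, 0 were called by edgeR, with 1 at an unadjusted p below 0.05 and a median log2 fold change of 0.05. The most abundant ones, the phosphatase gene *PTPN11* (363 to 378 normalized CPM; log2 fold change 0.02, adjusted p = 0.830) and the adaptor gene *GRB2* (122 to 125; 0.0053, adjusted p = 0.948), overlapped between the conditions, and their sign turned with library size alone. Of the 7 tested GTPase activating proteins counted here, which switch RAS off, 0 were called by edgeR and 0 had an unadjusted p below 0.05. *NF1*, the neurofibromin gene, was the most abundant of the list at 166 to 174 normalized CPM (log2 fold change 0.02, adjusted p = 0.800; below 0 with library size alone). *RASAL2*, next in level, stood at 73.6 and 75.2 normalized CPM in the 2-D and at 81.4 and 74.2 in the 3-D libraries, which overlapped (log2 fold change 0.07 ± 0.04 SE, adjusted p = 0.428). Of 8 genes of the lipid processing that puts RAS on membranes, 0 were called by edgeR, with 1 at an unadjusted p below 0.05; the depalmitoylating enzyme gene *LYPLA1* (log2 fold change -0.06) and the methyltransferase gene *ICMT* (-0.06) were the most abundant. With library size alone both were called lower, *LYPLA1* at -0.12 (adjusted p = 0.0337) and *ICMT* at -0.13 (adjusted p = 0.0199).

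The RAF regulators and MAPK scaffolds, the longest list, had 7 of 20 genes called higher with 3-D culture and 0 called lower. At an unadjusted p below 0.05 there were 11, and the median log2 fold change was 0.08. Over all 22555 genes tested, 4.54% were called higher and 3.36% lower, and 4808 had an unadjusted p below 0.05. *CDC37*, the kinase cochaperone gene that delivers RAF to HSP90, rose from 133 and 125 to 146 and 155 normalized CPM (log2 fold change 0.22 ± 0.04 SE, adjusted p = 0.00334). *PEA15*, whose product holds ERK in the cytoplasm, rose from 176 and 175 to 196 and 194 normalized CPM (log2 fold change 0.15, adjusted p = 0.00717). *PEBP1*, the gene of the RAF kinase inhibitor protein, rose with a log2 fold change of 0.13 (adjusted p = 0.0215), and *IQGAP1*, a scaffold gene, with 0.13 (adjusted p = 0.0184). *YWHAE*, of the phosphoserine-binding adaptors that bind RAF, rose from 30.3 and 27.0 to 36.1 and 35.6 normalized CPM (log2 fold change 0.32, adjusted p = 0.0131). It has a copy on an alternate contig of hg38, so that reads matching both may not have been counted. The more abundant *YWHAG* of this family fell from 431 and 427 to 415 and 383 normalized CPM but was not called (-0.11, adjusted p = 0.116). *YWHAB* (-0.0065), *YWHAQ* (-0.02) and *YWHAZ* (0.08) were not called either. The other calls, *CNKSR1* (0.34, adjusted p = 0.0473) and *YWHAH* (0.11, adjusted p = 0.0490), were close to the threshold. The called genes include both helpers and inhibitors of the cascade. The count of the list was 5 higher and 0 lower with DESeq2, 2 and 0 with the likelihood ratio test, 2 and 2 with library size alone, 2 and 0 without 2-D replicate 1 and 1 and 0 without 2-D replicate 2. Of the 12 alternatives tried, the call held in 12 for *CDC37*, 11 for *YWHAE*, 8 each for *PEA15*, *IQGAP1* and *PEBP1*, 4 for *YWHAH* and 3 for *CNKSR1*.

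On the ERK lists, placed downstream of MEK, 3 of the 38 distinct genes tested were called, 7.89% beside 7.90% of all genes tested. The unadjusted p was below 0.05 for 4 of 15 phosphatases and feedback inhibitors, 2 of 11 substrates and 10 of 16 response transcripts. These lists share 4 genes, and over all 22555 genes tested the number was 4808. Only some of the genes listed as ERK phosphatases and feedback inhibitors are transcribed in answer to ERK activity and dampen it. Of the 15 tested on this list, 0 were called by edgeR, with 4 at an unadjusted p below 0.05 and a median log2 fold change of 0.10. *SPRY4*, the most abundant of them, stood at 181.6 and 181.6 normalized CPM in the 2-D and at 195.7 and 193.1 in the 3-D libraries (log2 fold change 0.10 ± 0.03 SE, adjusted p = 0.0620). *SPRED1*, next in level, overlapped between the conditions (log2 fold change -0.0063, adjusted p = 0.954). Of 11 ERK substrates, *MKNK2*, a kinase gene whose product phosphorylates the cap-binding protein eIF4E, was called higher (log2 fold change 0.15, adjusted p = 0.0258), and the ternary complex factor gene *ELK4* was not called (-0.07, adjusted p = 0.256) except with library size alone (-0.14, adjusted p = 0.0259).

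Of 16 tested ERK response transcripts, 1 was called higher and 1 lower with 3-D culture. Before adjustment, p was below 0.05 for 10, beside 4808 of all 22555 genes tested. The log2 fold change was above 0 for 12 of the 16 and below 0 for 4, with a median of 0.08. *FOSL1*, which encodes the AP-1 subunit FRA1, rose from 13.7 and 15.0 to 20.8 and 19.8 normalized CPM (log2 fold change 0.50 ± 0.08 SE, adjusted p = 0.00250). *PHLDA1*, an immediate response gene, fell from 279 and 273 to 250 and 238 normalized CPM (log2 fold change -0.18 ± 0.03 SE, adjusted p = 0.00529). In both genes the libraries of the conditions did not overlap, and both calls held in all 12 alternatives. An antisense gene overlapped 9.35% of the exon bases of *PHLDA1*.

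The other MAP kinase modules held the JNK and p38 kinases of the answer to stress and cytokines, with their activators. They also held the ERK5 pair *MAP2K5* and *MAPK7*, and the atypical kinases *MAPK4*, *MAPK6* and *MAPK15*. Of 16 tested, 1 was called higher and 3 lower, with a median log2 fold change of -0.05. The shares over all genes tested were 4.54% higher and 3.36% lower. *MAP2K7*, an activator of JNK, rose from 32.7 and 34.2 to 39.1 and 39.8 normalized CPM (log2 fold change 0.24, adjusted p = 0.0235), and an antisense gene overlapped 8.51% of its exon bases. The JNK genes *MAPK9* (log2 fold change -0.15, adjusted p = 0.0307) and *MAPK10* (-0.37, adjusted p = 0.0495) and the p38 gene *MAPK14* (-0.14, adjusted p = 0.0386) fell. *MAPK14* stood at 78.8 and 79.0 normalized CPM in the 2-D and at 70.0 and 73.4 in the 3-D libraries, a fold change near that of *MAP2K1*. Of the 12 alternatives, the call held in 7 for *MAPK9*, 7 for *MAPK14*, 6 for *MAP2K7* and 4 for *MAPK10*.

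**Figure D4:**
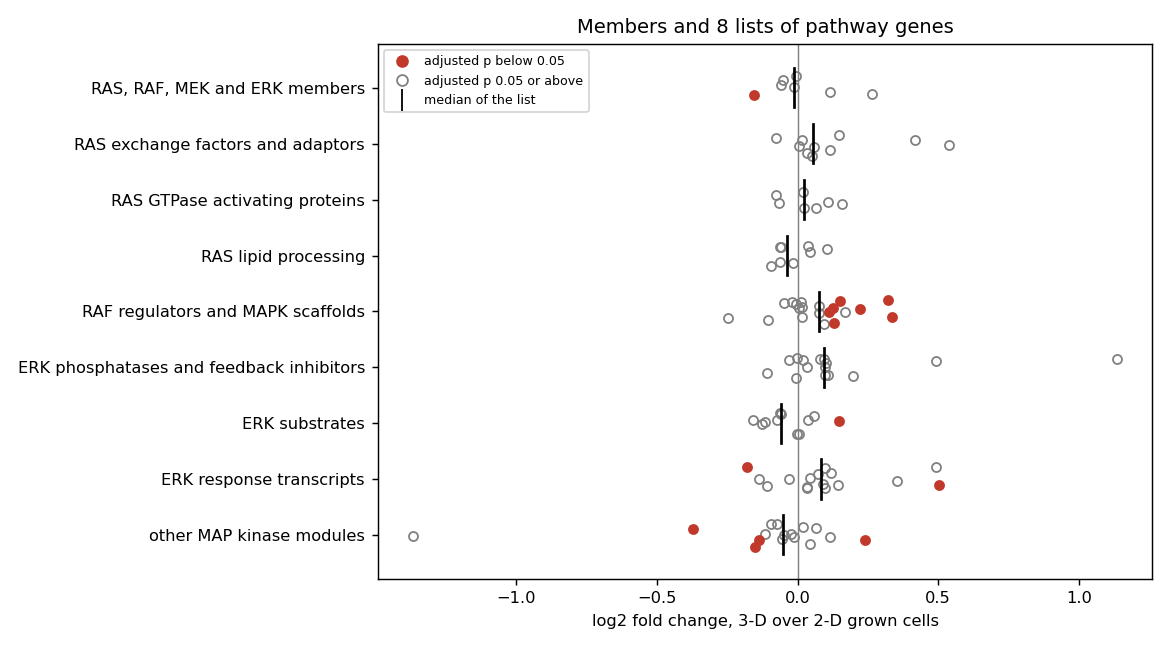
Log2 fold changes, 3-D over 2-D grown cells, of the 7 genes (top row) and of the tested genes of 8 pathway lists; filled points have an edgeR adjusted p below 0.05, open points do not, and the black bar is the median of the row. The 7 filled points of the RAF regulators all lie above 0, and the single filled point of the top row is *MAP2K1* at -0.15.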

How the data were processed

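RNA was measured by sequencing of rRNA-depleted libraries, 2 of 2-D and 2 of 3-D grown Elf1 cells. The deposited values are raw read counts per gene, which the authors made by trimming with Trim Galore 0.6.3, mapping to hg38 with HISAT2 2.1.0 and counting with featureCounts 1.6.4 on GENCODE release 30. The strand setting and the treatment of reads with several matches are not given in the sources used here. The authors' table of normalized values, with 4 columns of samples, and their columns of fold changes and p-values were not used.

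Gene names came from GENCODE release 44 by Ensembl ID, version left out: 60295 of 60564 IDs matched, and the 269 others held 0.122% of the counts. Counts were filtered (filterByExpr), scaled by TMM and fitted with edgeR 4.0.16 (quasi-likelihood, condition only, R 4.3.3), with Benjamini-Hochberg adjustment over the 22555 genes tested. The steps were tested on simulated data. Alternatives were DESeq2 (1.42.0) as test or scaling, library size alone, a likelihood ratio test, other filters, offsets for length and GC content, a replicate block and each library left out. Copies of transcripts were searched with minimap2 2.31-r1302. Replicate counts differed by more than sampling noise (chi-square per degree of freedom of 2.30 for 2-D and 3.98 for 3-D), so no library was taken as a duplicate.

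Of each list, at most the 5 called genes with the smallest p are named, or the most abundant until 2 are named. *CNKSR1*, *YWHAH*, *YWHAG*, *YWHAB*, *YWHAQ* and *YWHAZ* fall outside this rule and were named after their values were seen. Pseudogenes and exon-sharing neighbours of the 7 genes are named too. The 7 genes and all lists were chosen with earlier results of these data known. Some genes of the pathway are not reported here and stand in no list count.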

Additional observations from a re-analysis of the deposited data

How the results depend on the processing

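With DESeq2, the likelihood ratio test and library size alone, 0, 0 and 3 of the 7 genes were called, the last being *NRAS* (-0.12), *RRAS2* (-0.12) and *MAP2K1*; with 1 library left out, 0 to 1 were called. *MAP2K1* stayed below 0 in all alternatives but was not called by DESeq2 (-0.15) or the likelihood ratio test (-0.15), nor with any 1 library left out (-0.17 to -0.14). With 1 library left out, *MAPK3* ranged from 0.17 to 0.36, *MRAS* from 0.0415 to 0.194, *RRAS2* from -0.0765 to -0.0242, *BRAF* from -0.0457 to 0.0172 and *MAP2K2* from -0.0191 to 0.0085, and the difference in share from -0.63 to 0.0633 points for *NRAS*, from -0.30 to 0.30 for *RRAS2* and from 0.149 to 0.427 for *MRAS*. Over all genes, DESeq2 called 795 (511 higher, 284 lower), the likelihood ratio test 1139 (651 higher, 488 lower) and library size alone 514 higher and 1879 lower; with 1 library left out 974 to 2643 were called, 560 to 1468 higher and 414 to 1175 lower. Of the pathway lists, 3 genes were called higher and 12 lower with library size alone, 6 and 1 with DESeq2, 3 and 1 with the likelihood ratio test, and 2 to 14 higher and 1 to 5 lower with 1 library left out. Genes that were not called changed sign: *GRB2* (-0.0591 with library size alone, -0.0022 with at least 10 counts in every library, -0.0113 with offsets, -0.0118 to 0.0222 with 1 library left out), *NF1* (-0.0449 with library size alone, -0.0128 to 0.0547 with 1 library left out), *PTPN11* (-0.0478 and -0.0122 to 0.0472), *RASAL2* (-0.0019 to 0.132 with 1 library left out) and *SPRED1* (0.0235 with offsets, -0.0570 to 0.0477 with 1 library left out). The causes were not tested.

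The replicate numbers of the labels were shared by both conditions, but deviations of same-numbered libraries did not go together (correlation -0.02 over 17823 genes), so the numbers were not taken as pairs; with the replicate as a block 2167 genes were called, and *MAP2K1* had an adjusted p of 0.0295 and *MAPK3* of 0.0676. Depth limits *MRAS* and *MAPK3* most, at 247 to 481 and 326 to 463 counts a library.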
